A study of Solanum lycopersicum with 24 samples.

Results

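The plasma membrane intrinsic proteins (PIPs) were described across tomato hairy roots in which 1 of 3 transcription factors had been overexpressed or knocked out. Members were found by locus identifier, as 5 PIP1 loci and 5 PIP2 loci. Of these 10 loci, 9 were among the 34688 loci of the table and 1 PIP1 locus, Solyc08g008050, was not analysed here. All 9 passed the filter on low counts that left 18297 loci for testing. The 4 PIP1 loci were Solyc01g094690, Solyc12g056220, Solyc08g081190 and Solyc03g096290, and the 5 PIP2 loci were Solyc09g007770, Solyc09g007760, Solyc06g011350, Solyc10g084120 and Solyc11g069430.

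PIPs are aquaporins, small membrane channels that let water, and in some cases other small neutral solutes, cross the plasma membrane. In plants they form tetramers, and PIP1 proteins usually need a PIP2 partner to reach the plasma membrane, where PIP2 proteins are generally the stronger water channels. In roots they carry the cell-to-cell part of radial water uptake, alongside barriers such as suberin that limit flow through cell walls and across cell surfaces.

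Hairy roots are root cultures induced on plant tissue by Agrobacterium rhizogenes, and each transformation event gives its own line. There were 8 groups of 3 libraries, all of the tomato (Solanum lycopersicum) cultivar M82. The tested groups were SlMYB41 overexpression (35S::MYB41-3xFLAG), SlMYB41 knockout, SlMYB92 overexpression (35S::MYB92-3xFLAG), SlMYB92 knockout, SlWRKY71 overexpression (35S::WRKY71-3xFLAG), SlWRKY71 knockout line 4 and SlWRKY71 knockout line 5. The control carried an empty vector. The 35S promoter is broadly active and is not limited to the exodermis, the outer cortical layer in which these factors are normally enriched, and the tag adds a FLAG epitope to each overexpressed protein. Every group grew at 25 °C without light for 9 days, on 3% sucrose and with cefotaxime, an antibiotic against the inducing bacterium, and each sample pooled the first 1 cm of 10 root tips. The design asks what loss or gain of each factor does to the root transcriptome. The labels tie the replicates to a line, not to separate transformation events, so p-values measure only the spread between these samples, and only the SlWRKY71 knockout had a second line. All comparisons with the control used the same 3 control libraries.

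Libraries held 4852464 to 15372241 estimated counts, of which the 9 PIP loci together took 0.182% to 0.521%. Levels are CPM, counts scaled to a common library size after trimmed-mean (TMM) normalization, and are not divided by transcript length, so they are compared between samples and not between loci. Libraries are numbered as in the table. The locus taken as SlMYB41 reached 7.18 to 13.6 CPM in its overexpression group and at most 1.45 CPM in any other library, and the locus taken as SlMYB92 reached 48.2 to 87.5 CPM, against at most 0.422 CPM elsewhere. In control roots SlMYB41 had 0 to 0.159 CPM and SlMYB92 0 to 0.188 CPM, beside 0 to 0.270 CPM and 0 to 0.199 CPM in their own knockouts. Each MYB knockout was thus compared with a control in which the targeted transcript was itself barely counted. The locus taken as SlWRKY71 spanned 5.20 to 41.4 CPM in its overexpression group, 1.05 to 3.15 CPM in knockout line 4, 0.455 to 4.29 CPM in knockout line 5 and 1.13 to 1.99 CPM in control roots, and counts do not check the knockouts, since an edited transcript can still be counted. Every other library had a mean correlation over all tested loci between 0.949 and 0.979 with its own group. SlWRKY71 overexpression library 2, the one at 5.20 CPM, stood apart, with 0.930 with its own group and 0.960 with the other groups. The group it was closest to was SlMYB41 overexpression. The edgeR tests of SlWRKY71 overexpression against control and against its knockouts are given with and without library 2. So are the tests of its differences from the MYB factors. Group means, correlations and comparisons with the mean of the groups that target other genes are given only with that library. SlMYB92 knockout library 2 was closest to SlMYB41 knockout, and libraries 2 and 5 of SlWRKY71 knockout line 5 were closest to line 4. None of the identifiers is annotated in the files or the reference table, so the tissue label could not be checked against annotated marker genes.

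PIP transcripts together had their lowest group means in both SlWRKY71 knockout lines. The summed level of the 9 loci was 2135, 2419 and 2170.0 CPM in knockout line 4 and 2418, 1802 and 2384 CPM in knockout line 5, against 3591, 5018 and 4192 CPM in control roots. All 6 knockout libraries lay below the lowest control library. SlWRKY71 overexpression roots had 4308, 3824 and 3963 CPM, which lay inside the control range. SlMYB41 overexpression gave 2888 ± 466 CPM, SlMYB92 overexpression 2972 ± 447 CPM, SlMYB41 knockout 3756 ± 759 CPM and SlMYB92 knockout 3619 ± 453 CPM, against 4267 ± 716 CPM in control roots (SD, n = 3 each). SlMYB41 overexpression library 3, at 2359.5 CPM, lay inside the range of the SlWRKY71 knockout libraries. SlMYB92 overexpression library 3, at 2466.8 CPM, lay just above it. The summed level was not tested. In these pooled root tips, fewer cells of a type that carries PIP transcripts and less PIP RNA per cell cannot be told apart.

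**Figure D1:**
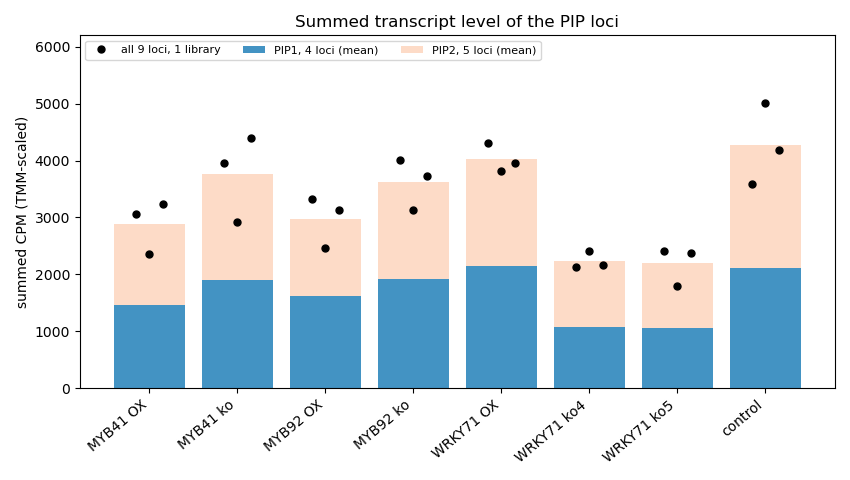
Summed TMM-scaled CPM of the PIP loci in each group, with bars for the group mean split into the 4 PIP1 and 5 PIP2 loci and points for single libraries. The SlWRKY71 knockout libraries lie between 1802 and 2419 CPM, below all 3 control libraries at 3591 to 5018 CPM.

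PIP1 loci made up 48.0% ± 0.677 of the PIP CPM in SlWRKY71 knockout line 4, 47.6% ± 2.09 in line 5 and 49.6% ± 1.14 in control roots (SD, n = 3 each). The highest group mean was 54.7% ± 3.40 in SlMYB92 overexpression roots, and single libraries spanned 45.2% to 58.2%. The family was carried by few loci, since Solyc08g081190 took 38.1% and Solyc11g069430 took 35.5% of all PIP counts, shares that also depend on transcript length. Solyc12g056220 followed with 10.2%, and Solyc10g084120 was the smallest contributor with 0.366%.

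Across all 8 groups, 8 of the 9 PIP loci differed somewhere, where the same test called 25.7% of all tested loci (edgeR quasi-likelihood test of any difference, Benjamini-Hochberg adjusted p under 0.05). The smallest edgeR adjusted p values were 0.00011 for Solyc12g056220, 0.00038 for Solyc06g011350 and 0.00053 for Solyc09g007760. The locus not called was Solyc01g094690, a PIP1 locus whose group means ran between 51.2 and 90.2 CPM (edgeR adjusted p = 0.25). Its libraries overlapped between every pair of groups adjacent in the order of means. Leaving out SlMYB41 knockout library 5, at 91.9 CPM beside 35.6 and 36.6 CPM, brought it to an edgeR adjusted p of 0.023. Solyc11g069430 was the least firm of the 8, with an edgeR adjusted p of 0.033 that moved to between 0.051 and 0.093 without library 2 or 4 of SlWRKY71 knockout line 4, library 3 of line 5, or control library 3 or 5, and to 0.11 with no filter on low counts, while Solyc03g096290 had 0.019 with all libraries and 0.052 without library 5 of line 5.

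**Figure D2:**
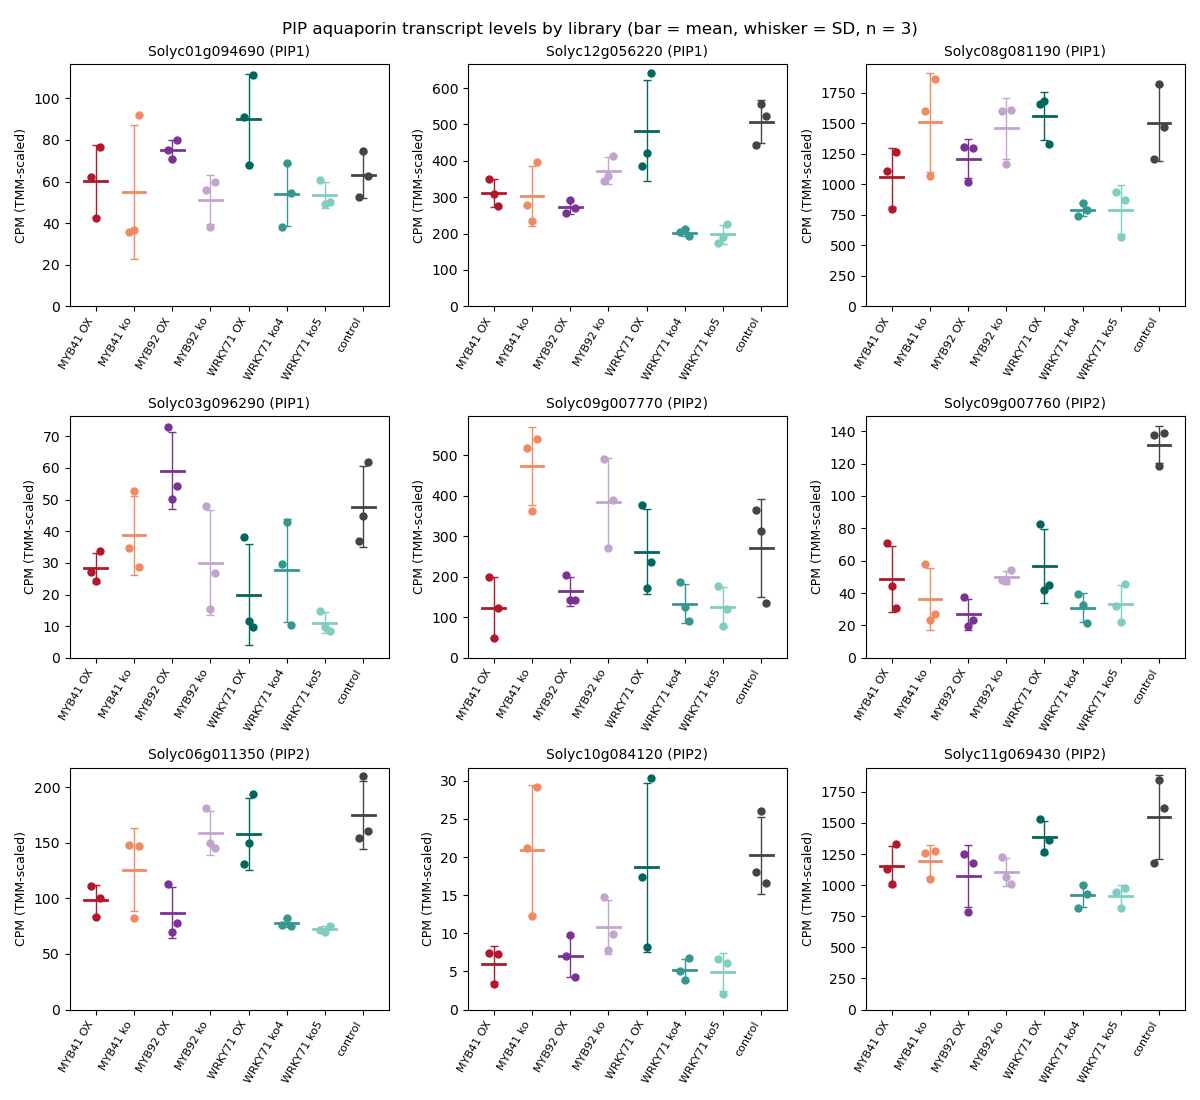
TMM-scaled CPM of each PIP locus in every library, with a bar at the group mean and a whisker of 1 SD (n = 3). Both SlWRKY71 knockout lines have the lowest group means for Solyc12g056220, Solyc08g081190, Solyc06g011350, Solyc10g084120 and Solyc11g069430. At these loci, except Solyc12g056220, single libraries of SlMYB41 or SlMYB92 overexpression reach into the range of the knockout libraries. Solyc09g007760 stands at 118 to 139 CPM in control roots and at most 82.9 CPM in every other library.

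In SlWRKY71 knockout line 4, 6 of 9 PIP loci were lower than in control roots and none was higher, beside 2.73% of all tested loci called lower and 4.19% called higher. In knockout line 5, 7 of 9 were lower and none was higher, beside 3.26% called lower and 4.53% called higher. The median log2 fold change over the 9 loci was -1.01 in line 4 and -1.28 in line 5, beside -0.01 over all tested loci in each. Every knockout library was below every control library at 6 PIP loci in line 4, as at 17% of all tested loci, and at 7 in line 5, as at 14.9%. All of these calls are from edgeR at an adjusted p under 0.05, and the lines share their control libraries. Set against the mean of the groups that target other genes in place of the control, 2 loci were called lower in line 4 and 4 in line 5. The shares of all tested loci above are those against control, and none is given here for this other reference.

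Among the PIP1 loci, Solyc12g056220 fell in both lines. It had 204, 212 and 192 CPM in knockout line 4 and 174, 192 and 227 CPM in line 5, against 443, 557 and 525 CPM in control roots. The highest of the 6 knockout libraries was at 227 CPM and the lowest control library at 443 CPM, so the groups did not overlap. The log2 fold change was -1.33 (SE 0.21, edgeR adjusted p = 0.00087) in line 4 and -1.36 (SE 0.21, edgeR adjusted p = 0.00044) in line 5.

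Solyc08g081190, the PIP1 locus with the most counts, had 737, 849 and 791 CPM in line 4 and 936, 565 and 874 CPM in line 5, against 1205, 1824 and 1472 CPM in control roots. Every knockout library was below every control library, although control library 2 was closer to the highest of them than to control library 3. Its log2 fold change was -0.92 in both lines (SE 0.24 in each), with edgeR adjusted p values of 0.024 in line 4 and 0.022 in line 5.

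Solyc03g096290, another PIP1 locus, was called in line 5 and not in line 4. It had 29.8, 42.8 and 10.5 CPM in line 4 and 14.8, 9.81 and 8.5 CPM in line 5, against 36.8, 44.7 and 61.8 CPM in control roots. Line 5 lay wholly below the control, while line 4 overlapped it and spread over a wide range. The log2 fold change was -2.11 (SE 0.50, edgeR adjusted p = 0.014) in line 5 and -0.78 (SE 0.47, edgeR adjusted p = 0.31) in line 4. The last PIP1 locus, Solyc01g094690, averaged 53.8 ± 15.3 CPM in line 4 and 53.4 ± 6.36 CPM in line 5, against 63.3 ± 11 CPM in control roots (SD, n = 3 each), and passed the test in neither line (edgeR adjusted p = 0.67 and 0.66).

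Of the PIP2 loci, Solyc06g011350 had 76.3, 82.1 and 75.2 CPM in line 4 and 72, 69.7 and 75 CPM in line 5, against 155, 210.4 and 161 CPM in control roots. The knockout libraries were tightly grouped, and all were below the lowest control library. This gave a log2 fold change of -1.17 (SE 0.22, edgeR adjusted p = 0.0043) in line 4 and -1.28 (SE 0.22, edgeR adjusted p = 0.0018) in line 5.

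Solyc09g007760 had 39.2, 32.5 and 21.3 CPM in line 4 and 31.9, 22.1 and 45.4 CPM in line 5, against 138, 118 and 139 CPM in control roots. All 6 knockout libraries lay far below all 3 control libraries. The log2 fold change was -2.09 (SE 0.37, edgeR adjusted p = 0.0027) in line 4 and -1.99 (SE 0.37, edgeR adjusted p = 0.0028) in line 5. This locus shares reads with Solyc09g007770, as described further on, so its value alone is uncertain.

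Solyc10g084120, the PIP2 locus with the fewest counts, had 5.04, 3.84 and 6.76 CPM in line 4 and 6.61, 2.04 and 6.07 CPM in line 5, against 18, 26 and 16.6 CPM in control roots. Its knockout libraries were all below its control libraries. The fitted log2 fold change was -1.96 (SE 0.47, edgeR adjusted p = 0.016) in line 4 and -2.01 (SE 0.47, edgeR adjusted p = 0.014) in line 5.

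Solyc11g069430, the PIP2 locus with the most counts, had 820.0, 1002 and 929 CPM in line 4 and 944, 814 and 976 CPM in line 5, against 1180.2, 1848 and 1619.7 CPM in control roots. The groups did not overlap, but control library 2 was closer to the highest knockout library than to the other control libraries. The log2 fold change was -0.76 (SE 0.19, edgeR adjusted p = 0.024) in line 4 and -0.77 (SE 0.19, edgeR adjusted p = 0.021) in line 5. Solyc09g007770 averaged 134 ± 48.5 CPM in line 4 and 126 ± 49.6 CPM in line 5, against 271 ± 121 CPM in control roots (SD, n = 3 each; 364, 314 and 135 CPM by library), and was not called in either line (edgeR adjusted p = 0.15 and 0.11).

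The calls for Solyc12g056220, Solyc06g011350 and Solyc09g007760 held in both lines when any 1 library was left out. Against the mean of the groups that target other genes, however, Solyc09g007760 had a log2 fold change of only -0.34 in line 4 and -0.23 in line 5 (edgeR adjusted p = 0.55 and 0.68), and Solyc06g011350 was called in line 5 and not in line 4 (edgeR adjusted p = 0.032 and 0.082). In line 4, Solyc08g081190, Solyc10g084120 and Solyc11g069430 each lost their call without knockout library 2 (edgeR adjusted p = 0.084, 0.068 and 0.096), knockout library 4 (0.091, 0.055 and 0.084) or control library 3 (0.097, 0.069 and 0.10), which left 3 loci called, and without control library 5 Solyc08g081190 and Solyc11g069430 did (0.068 and 0.079). In line 5, Solyc03g096290, Solyc08g081190, Solyc10g084120 and Solyc11g069430 lost their calls without knockout library 3 (edgeR adjusted p = 0.058, 0.097, 0.073 and 0.079), which also left 3. Without control library 3, Solyc08g081190, Solyc10g084120 and Solyc11g069430 lost theirs (0.093, 0.056 and 0.096), without control library 5 Solyc03g096290, Solyc08g081190 and Solyc11g069430 did (0.061, 0.053 and 0.063), and without knockout library 5 Solyc03g096290 did (0.060).

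Line 5 was then set directly against line 4, a contrast added after the values had been seen. No PIP locus differed by edgeR at an adjusted p under 0.05, where 0.0547% of all tested loci did, 1 locus had an unadjusted p under 0.05, and DESeq2 called 0. For 8 of the 9 loci the log2 difference was between -0.11 and 0.10. The intervals were narrow for the loci with many counts, such as -0.41 to 0.39 for Solyc11g069430 and -0.46 to 0.38 for Solyc12g056220, and wide for Solyc10g084120 at -1.07 to 0.96 (95% confidence, log2 scale). Solyc03g096290 was the exception at -1.33 (95% interval -2.36 to -0.29, edgeR unadjusted p = 0.014, adjusted p = 1).

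**Figure D3:**
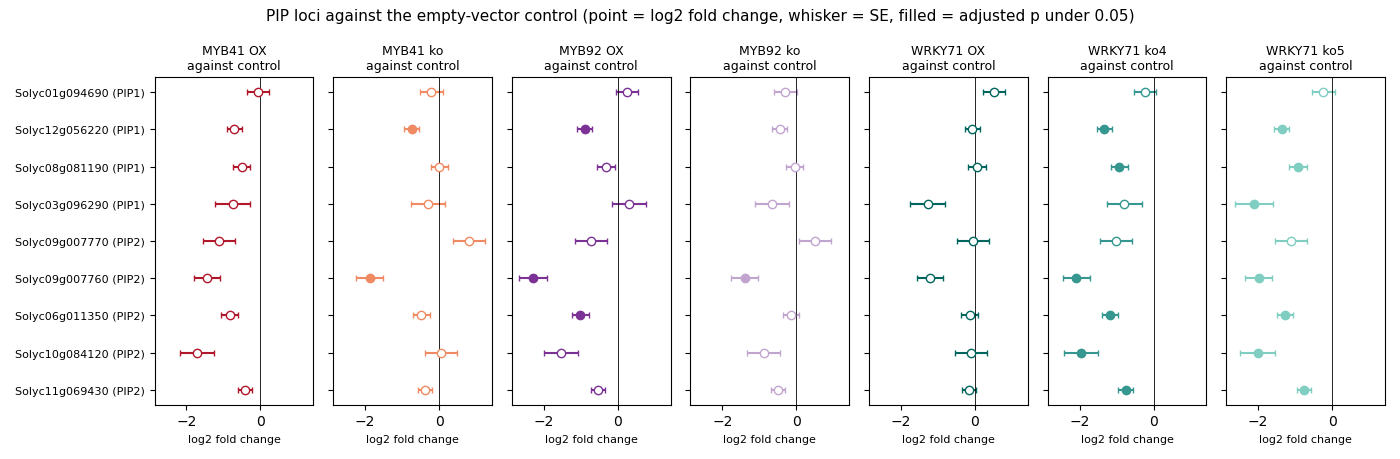
Log2 fold change of each PIP locus against the empty-vector control in 7 tested groups, with a whisker of 1 SE and filled points where the edgeR adjusted p was under 0.05. Filled points are most frequent in the SlWRKY71 knockout panels (6 and 7 loci), and no filled point lies above 0.

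SlWRKY71 overexpression was compared with the mean of its 2 knockout lines, and 8 of 9 PIP loci were higher in the overexpression roots and none was lower. In this contrast 17.9% of all tested loci were called higher and 13% lower. The median log2 fold change over the PIP loci was 0.98, beside 0.03 over all tested loci. The largest was for Solyc10g084120, with 17.3, 8.26 and 30.3 CPM in overexpression roots, against 5.04, 3.84 and 6.76 CPM in line 4 and 6.61, 2.04 and 6.07 CPM in line 5. Every overexpression library was above every knockout library, which held for 5 PIP loci and 8.88% of all tested loci (log2 fold change 1.87, SE 0.38, edgeR adjusted p = 0.0015).

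Solyc12g056220 had 385, 422 and 642 CPM in SlWRKY71 overexpression roots, against at most 227 CPM in the knockout libraries, a log2 fold change of 1.27 (SE 0.17, edgeR adjusted p = 0.00011). Solyc06g011350 had 131, 149.8 and 194 CPM, against at most 82.1 CPM in the knockout libraries, a log2 fold change of 1.08 (SE 0.18, edgeR adjusted p = 6e-04). Solyc08g081190 had 1657, 1687 and 1329 CPM, against at most 936 CPM in the knockout libraries, a log2 fold change of 0.98 (SE 0.20, edgeR adjusted p = 0.0015). These 3 loci thus had no overlap between overexpression and knockout. Solyc11g069430 had 1528, 1263 and 1365 CPM, against at most 1002 CPM in the knockout libraries, a log2 fold change of 0.60 (SE 0.16, edgeR adjusted p = 0.0090).

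The other 3 called loci overlapped between overexpression and knockout libraries. Solyc09g007770 had 377, 173 and 236 CPM in overexpression roots, against 187, 125 and 90.7 CPM in line 4 and 178, 78.7 and 121 CPM in line 5 (log2 fold change 1.01, SE 0.36, edgeR adjusted p = 0.036). Solyc09g007760 had 82.9, 41.7 and 45.3 CPM in overexpression roots, against 39.2, 32.5 and 21.3 CPM in line 4 and 31.9, 22.1 and 45.4 CPM in line 5 (log2 fold change 0.82, SE 0.30, edgeR adjusted p = 0.044). Solyc01g094690 had 91.2, 68 and 111 CPM in overexpression roots, against 38.3, 68.8 and 54.2 CPM in line 4 and 60.7, 49.3 and 50.2 CPM in line 5 (log2 fold change 0.75, SE 0.26, edgeR adjusted p = 0.032). In each case the overlap came from 1 or more overexpression libraries that reached down to the highest knockout library. Solyc03g096290, with 38.3, 11.8 and 9.76 CPM in overexpression roots, was the locus not called (log2 fold change 0.17, SE 0.42, edgeR adjusted p = 0.79).

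Without SlWRKY71 overexpression library 2, 5 of 9 loci stayed higher than in the knockout lines, where 21.6% of tested loci were then called higher. They were Solyc12g056220 (log2 fold change 1.41), Solyc08g081190 (0.92), Solyc06g011350 (1.19), Solyc10g084120 (1.93) and Solyc11g069430 (0.51, edgeR adjusted p = 0.028), and all 5 also kept their calls when any other library of these groups was left out. Without library 2, Solyc01g094690, Solyc09g007770 and Solyc09g007760 had edgeR adjusted p values of 0.053, 0.20 and 0.31. Solyc01g094690 also lost its call without overexpression library 5 (edgeR adjusted p = 0.20), library 2 or 4 of line 4 (0.074 and 0.051) and library 3 or 5 of line 5 (0.058 and 0.055). Solyc09g007770 lost it without overexpression library 5 (edgeR adjusted p = 0.078), library 3 or 4 of line 4 (0.058 and 0.080) and library 3 or 5 of line 5 (0.079 and 0.059), and Solyc09g007760 without overexpression library 4 or 5 (0.058 and 0.066), library 3 or 4 of line 4 (0.059 and 0.10) and library 2 or 3 of line 5 (0.070 and 0.097).

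Set against the control instead, SlWRKY71 overexpression called 0 of 9 PIP loci by edgeR, where 0.896% of all tested loci were called. By unadjusted p under 0.05 there were 2, Solyc03g096290 and Solyc09g007760, where 15.1% of all tested loci reached that level. DESeq2 called 1. Group means were close for the loci with the most counts: Solyc08g081190 averaged 1558 ± 198 CPM in overexpression roots and 1500.4 ± 311 CPM in control roots, and Solyc11g069430 averaged 1385 ± 134 CPM in overexpression roots and 1549 ± 339.6 CPM in control roots (SD, n = 3 each). Without overexpression library 2, 8.5% of tested loci were called, 5.11% higher and 3.39% lower. Solyc03g096290 (log2 fold change -2.16, edgeR adjusted p = 0.011) and Solyc09g007760 (log2 fold change -1.61, edgeR adjusted p = 0.017) were among those lower than in control roots. With library 2 their log2 fold changes were -1.28 (edgeR adjusted p = 0.21) and -1.22 (edgeR adjusted p = 0.11).

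SlMYB92 overexpression roots had 3 of 9 PIP loci lower than control roots and none higher, beside 1.26% of all tested loci called lower and 2.02% called higher. Solyc09g007760 had 37.6, 19.9 and 23.2 CPM, against 138, 118 and 139 CPM in control roots, with no overlap (log2 fold change -2.29, SE 0.37, edgeR adjusted p = 8e-04). Solyc06g011350 had 113, 70.1 and 78.3 CPM, against 155, 210.4 and 161 CPM in control roots (log2 fold change -1.01, SE 0.22, edgeR adjusted p = 0.012). Solyc12g056220 had 257, 293 and 269.8 CPM, against 443, 557 and 525 CPM in control roots (log2 fold change -0.90, SE 0.20, edgeR adjusted p = 0.015). For both of these loci every overexpression library was below every control library.

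Solyc10g084120 averaged 6.98 ± 2.73 CPM in SlMYB92 overexpression roots and 20.2 ± 5.07 CPM in control roots (SD, n = 3 each) and did not pass the test (edgeR adjusted p = 0.072), although its libraries did not overlap. DESeq2 called 5 loci in this comparison, a count given without the share of all tested loci called by DESeq2. Leaving out 1 library ended the call of Solyc06g011350 without overexpression library 3 or 4 or control library 3 (edgeR adjusted p = 0.062, 0.069 and 0.061). It ended that of Solyc12g056220 without overexpression library 2 or 4 or control library 3 or 5 (edgeR adjusted p = 0.087, 0.074, 0.063 and 0.057), so that as few as 1 locus remained called. None of the 3 was called against the mean of the groups that target other genes, where Solyc09g007760 had a log2 fold change of -0.57 (edgeR adjusted p = 0.43).

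In SlMYB41 overexpression roots, 0 of 9 PIP loci were called against the control by edgeR, where 0.978% of all tested loci were called. By unadjusted p under 0.05 there were 7, where 8.91% of all tested loci reached that level. DESeq2 called 3, a count given without its share of all tested loci. All 9 log2 fold changes were below 0, as were 49.1% of those of all tested loci, and 5 loci had every overexpression library below every control library, as did 7.82% of all tested loci. Solyc10g084120 had 7.43, 3.3 and 7.34 CPM in overexpression roots, against 18, 26 and 16.6 CPM in control roots (log2 fold change -1.72, SE 0.46, edgeR adjusted p = 0.089). Solyc09g007760 had 70.8, 44.2 and 31 CPM in overexpression roots, against 138, 118 and 139 CPM in control roots (log2 fold change -1.44, SE 0.36, edgeR adjusted p = 0.060), and it passed the test without overexpression library 2 (edgeR adjusted p = 0.033).

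The MYB knockouts were also set against control roots. SlMYB41 knockout roots had 2 of 9 lower and none higher, beside 2.49% of all tested loci called lower and 2.62% called higher. Solyc09g007760 had 58.1, 23.4 and 27.2 CPM in the knockout, against 138, 118 and 139 CPM in control roots, with no overlap (log2 fold change -1.87, SE 0.37, edgeR adjusted p = 0.0029). Solyc12g056220 had 278, 235 and 397 CPM in the knockout, against 443, 557 and 525 CPM in control roots (log2 fold change -0.74, SE 0.20, edgeR adjusted p = 0.034). The call for Solyc12g056220 was lost without knockout library 2 or 3 or control library 3 or 5 (edgeR adjusted p = 0.11, 0.15, 0.11 and 0.10), with no filter on low counts (0.069) and with only these 2 groups in the fit (0.11). Against the mean of the groups that target other genes its log2 fold change turned to 0.076 (edgeR adjusted p = 0.88), and that of Solyc09g007760 was -0.07 (edgeR adjusted p = 0.95).

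SlMYB92 knockout roots had 1 of 9 PIP loci lower than control roots and none higher, beside 1.75% of all tested loci called lower and 1.12% called higher. It was again Solyc09g007760, with 47.9, 47.2 and 54.5 CPM in the knockout, against 138, 118 and 139 CPM in control roots (log2 fold change -1.40, SE 0.36, edgeR adjusted p = 0.032). The call was lost whichever of the 6 libraries was left out, with edgeR adjusted p values between 0.052 (without control library 3) and 0.13 (without knockout library 2). The remaining knockout libraries, 3 and 5, gave 0.096 and 0.089, and the remaining control libraries, 2 and 5, gave 0.076 and 0.11. Against the mean of the groups that target other genes its log2 fold change turned to 0.32 (edgeR adjusted p = 0.55).

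Overexpression and knockout of the same MYB factor were compared without the control. SlMYB41 overexpression roots had 2 of 9 PIP loci lower than SlMYB41 knockout roots and none higher, beside 1.27% of all tested loci called lower and 1.93% called higher. Solyc09g007770 had 200.1, 49 and 122 CPM in overexpression roots, against 519, 363 and 540.4 CPM in the knockout (log2 fold change -1.94, SE 0.44, edgeR adjusted p = 0.013). Solyc10g084120 had 7.43, 3.3 and 7.34 CPM in overexpression roots, against 21.2, 12.3 and 29.3 CPM in the knockout (log2 fold change -1.77, SE 0.46, edgeR adjusted p = 0.035). Neither locus overlapped between the groups, and each knockout mean was close to or above the control mean, which was 271 CPM for Solyc09g007770 and 20.2 CPM for Solyc10g084120.

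These calls were not kept in every fit that left out 1 library. The log2 fold change stayed between -2.47 and -1.55 for Solyc09g007770 and between -2.04 and -1.44 for Solyc10g084120 in these fits. Solyc09g007770 lost its call without overexpression library 3 or 5 (edgeR adjusted p = 0.083 and 0.0503), and Solyc10g084120 without overexpression library 2, 3 or 5 (0.074, 0.20 and 0.070) or knockout library 2 or 5 (0.081 and 0.19). SlMYB92 overexpression roots had 1 of 9 PIP loci lower than SlMYB92 knockout roots and none higher, beside 3.3% of all tested loci called lower and 4.47% called higher. Solyc06g011350 had 113, 70.1 and 78.3 CPM in overexpression roots, against 181, 150.0 and 145 CPM in the knockout, with no overlap (log2 fold change -0.87, SE 0.22, edgeR adjusted p = 0.017). It lost its call without knockout library 2 (edgeR adjusted p = 0.061) or overexpression library 3 or 4 (0.071 and 0.077). DESeq2 called 2 loci in this comparison, and its share of all tested loci is not given here.

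**Figure D4:**
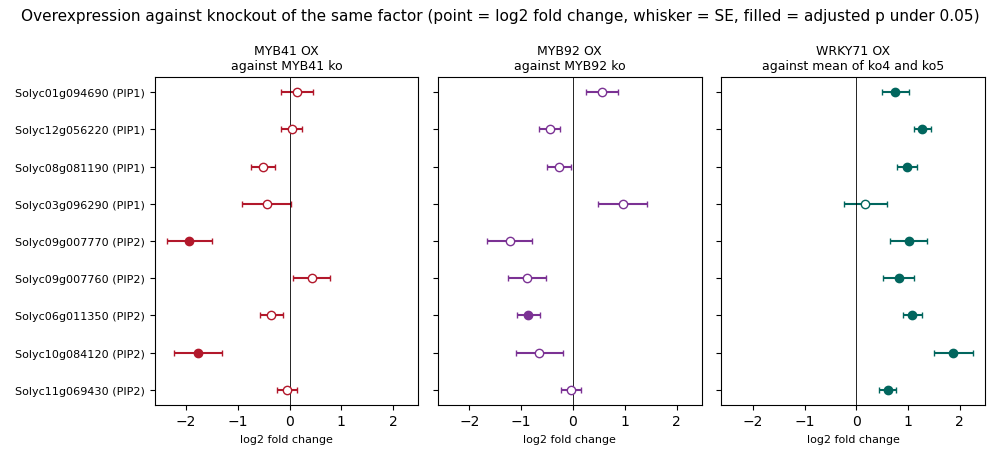
Log2 fold change of each PIP locus between overexpression and knockout of the same factor, with a whisker of 1 SE and filled points where the edgeR adjusted p was under 0.05. The SlWRKY71 panel has 8 filled points above 0, the SlMYB41 panel has 2 and the SlMYB92 panel 1, all below 0.

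Whether these contrasts differed between factors was tested as a difference of differences added after the values had been seen. The effect of overexpression over knockout was higher for SlWRKY71 than for SlMYB41 at 5 of 9 PIP loci, where 7.43% of all tested loci differed in either direction, and higher for SlWRKY71 than for SlMYB92 at 6 of 9, where 33.2% did. Between SlMYB92 and SlMYB41 it differed at 0 loci by edgeR, where 0.716% of all tested loci did, with 2 loci at an unadjusted p under 0.05. Without SlWRKY71 overexpression library 2, the first count was again 5 higher, beside 16.5% of all tested loci in either direction (8.12% higher and 8.34% lower). The second was 6 higher and 1 lower, beside 40.3% in either direction (21.6% higher and 18.7% lower). The 1 lower was Solyc03g096290 (log2 difference -1.67, edgeR adjusted p = 0.025).

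The factors' overexpression groups and knockout groups were also set against each other. SlMYB92 overexpression against SlMYB41 overexpression called 0 of 9 PIP loci by edgeR, where 0.552% of all tested loci were called, and 0 by DESeq2. An unadjusted p under 0.05 was reached by 2 PIP loci, beside 9.62% of all tested loci. SlMYB92 knockout against SlMYB41 knockout called 0 of 9 by edgeR, where 0.355% of all tested loci were called, and 0 by DESeq2. Here 1 PIP locus had an unadjusted p under 0.05, as did 12.2% of all tested loci, so 1 of 9 is near that share. That locus was Solyc10g084120, with 14.7, 7.87 and 9.9 CPM in SlMYB92 knockout roots, against 21.2, 12.3 and 29.3 CPM in SlMYB41 knockout roots (log2 fold change -0.93, SE 0.44, edgeR adjusted p = 0.40). Solyc03g096290 had 72.9, 50.1 and 54.3 CPM in SlMYB92 overexpression roots, against 27, 24.4 and 33.8 CPM in SlMYB41 overexpression roots, with no overlap but no call (log2 fold change 1.05, SE 0.47, edgeR adjusted p = 0.47).

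The MYB libraries not yet given are those of loci that differed somewhere among the 8 groups but were not called in the MYB comparison at hand. Solyc08g081190 had 1108, 794 and 1266 CPM in SlMYB41 overexpression roots and 1603, 1066 and 1862 CPM in SlMYB41 knockout roots. It had 1302, 1023 and 1300.1 CPM in SlMYB92 overexpression roots and 1597, 1166 and 1610.2 CPM in SlMYB92 knockout roots. For this PIP1 locus the overexpression and knockout libraries of each factor overlapped, and all 4 groups overlapped the control. Solyc11g069430 had 1128, 1009 and 1328 CPM in SlMYB41 overexpression roots and 1261, 1046 and 1270.4 CPM in SlMYB41 knockout roots. It had 1248, 787 and 1176 CPM in SlMYB92 overexpression roots and 1229.8, 1069 and 1013 CPM in SlMYB92 knockout roots. Each of these 4 groups of the PIP2 locus had a lower mean than control roots, with overlapping libraries and no call.

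Solyc12g056220 had 351, 309.6 and 276 CPM in SlMYB41 overexpression roots and 346, 359 and 414 CPM in SlMYB92 knockout roots, all below the lowest control library at 443 CPM but not called. Solyc09g007770 had 205, 144 and 144 CPM in SlMYB92 overexpression roots and 490.4, 271 and 391 CPM in SlMYB92 knockout roots, without overlap and without a call (log2 fold change -1.22, SE 0.43, edgeR adjusted p = 0.087). Solyc06g011350 had 111, 83.7 and 100.2 CPM in SlMYB41 overexpression roots and 148, 82.7 and 147 CPM in SlMYB41 knockout roots, which overlapped. Both of its SlMYB41 groups lay below the lowest control library, at 155 CPM. Solyc03g096290 had 34.7, 52.6 and 28.7 CPM in SlMYB41 knockout roots and 48, 15.3 and 26.8 CPM in SlMYB92 knockout roots, both overlapping the control. Solyc10g084120 had 6.96, 9.72 and 4.26 CPM in SlMYB92 overexpression roots, which overlapped the knockout of the same factor.

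Solyc09g007760 and Solyc09g007770 carry neighbouring identifiers and could not be counted separately from each other. Each had a fractional estimated count in 24 of 24 libraries, while their sum was within 0.01 of a whole number in all 24, and only 1 of the 168 other PIP values was not whole. The estimation therefore split shared reads between these 2 loci. Solyc09g007760 held 26.1%, 47.5% and 20.2% of the pair's counts in SlMYB41 overexpression roots, 10.1%, 6.05% and 4.79% in SlMYB41 knockout roots, and 27.4%, 27.3% and 50.7% in control roots. In the other 5 groups its share was between 8.89% and 27.2%.

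Counted as 1 gene, an alternative chosen after seeing the data, the pair had 226, 158 and 112 CPM in SlWRKY71 knockout line 4 and 209, 101 and 167 CPM in line 5, against 502, 433 and 273 CPM in control roots. By this count it was lower in both lines, with a log2 fold change of -1.29 (SE 0.37, edgeR adjusted p = 0.040) in line 4 and -1.34 (SE 0.37, edgeR adjusted p = 0.032) in line 5. SlWRKY71 overexpression roots had 459.7, 215 and 281 CPM and exceeded the knockout lines by a log2 fold change of 0.98 (SE 0.31, edgeR adjusted p = 0.021), which was 0.61 and not called without overexpression library 2 (SE 0.33, edgeR adjusted p = 0.15). SlMYB41 overexpression roots, with 271, 93.2 and 153 CPM, were below SlMYB41 knockout roots, with 577, 386 and 568 CPM (log2 fold change -1.56, SE 0.37, edgeR adjusted p = 0.018).

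The pair's calls were not kept in every fit that left out 1 library. In these fits its log2 fold change stayed between -1.58 and -1.08 in line 4 and between -1.57 and -1.10 in line 5. Between SlMYB41 overexpression and knockout it stayed between -2.05 and -1.26. In knockout line 4 the call was lost without knockout library 3 or 4 (edgeR adjusted p = 0.075 and 0.19) or control library 2, 3 or 5 (0.099, 0.11 and 0.055). In line 5 it was lost without knockout library 3 or 5 (edgeR adjusted p = 0.13 and 0.074) or control library 2 or 3 (0.090 each). Between SlMYB41 overexpression and knockout it was lost without overexpression library 3 or 5 (edgeR adjusted p = 0.14 and 0.074) or knockout library 2 or 5 (0.060 and 0.061).

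Against the control, the pair was no longer called in SlMYB92 overexpression roots (log2 fold change -1.07, SE 0.37, edgeR adjusted p = 0.12), SlMYB41 knockout roots (0.34, SE 0.37, edgeR adjusted p = 0.64) or SlMYB92 knockout roots (0.11, SE 0.36, edgeR adjusted p = 0.96). In both MYB knockouts the sign of the pair's log2 fold change was opposite to that of Solyc09g007760 alone, while Solyc09g007770 averaged 474 ± 96.9 CPM in SlMYB41 knockout roots and 384 ± 110.0 CPM in SlMYB92 knockout roots, against 271 ± 121 CPM in control roots (SD, n = 3 each).

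**Figure D5:**
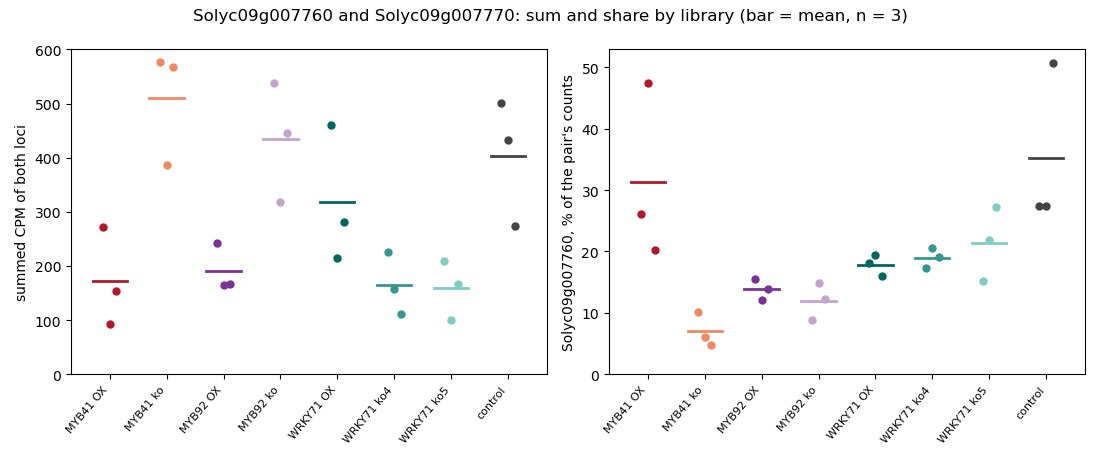
Summed CPM of Solyc09g007760 and Solyc09g007770 (left) and the percent of the pair's estimated counts given to Solyc09g007760 (right), with a point per library and a bar at the group mean (n = 3). In SlMYB41 knockout roots the sum was 386 to 577 CPM with a share of 4.79% to 10.1%, and in control roots 273 to 502 CPM with a share of 27.3% to 50.7%.

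The PIP loci also varied together to unequal degrees. Over the 24 libraries, Pearson correlations of log2(CPM + 1) between the 36 pairs of loci ran between 0.03 and 0.87 with a median of 0.46, and within groups the median was 0.32. The closest were Solyc12g056220 and Solyc06g011350, a PIP1 and a PIP2 locus, at 0.87, followed by Solyc08g081190 and Solyc06g011350 at 0.81 and Solyc08g081190 and Solyc11g069430 at 0.79. These points share libraries and groups, so the values describe these samples only. The order of group means was seldom resolved: groups adjacent in the order overlapped at every locus except SlMYB92 overexpression above SlWRKY71 knockout line 4 for Solyc12g056220, control above SlWRKY71 overexpression for Solyc09g007760, and SlWRKY71 knockout line 4 above line 5 for Solyc06g011350.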

How the data were processed

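Polyadenylated RNA from pooled hairy root tips was sequenced with random-primed, non-stranded, paired reads of 75 bp. Per the submitters' processing notes, the tools used upstream were kallisto 0.46.2 and Trim Galore 0.6.6. The annotation and genome build were not given in the sources used here. The authors deposited estimated counts per locus, of which 6.18% were not whole, and these were rounded to whole numbers before testing. The labels' protocols name 4 biological replicates per line, and 3 libraries per group were analysed here, with no identical libraries among them.

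Loci were filtered with filterByExpr and scaled by TMM (factors 0.909 to 1.12), and 1 mean per group was fitted over all 24 libraries with edgeR 4.0.16 (R 4.3.3, limma 3.58.1). The common dispersion was 0.0789, a coefficient of variation of 28.1%, which limits how small a difference 3 libraries can show. Quasi-likelihood tests were 2-sided, with Benjamini-Hochberg adjustment over 18297 loci and a threshold of 0.05. Alternatives were DESeq2 1.42.0, upper-quartile scaling, no filter, only the groups compared, another reference, a replicate block and leaving out each library.

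All loci of the rule were named, and every library's value was given for those called in a comparison or in the test of any difference. The identifiers of the targeted genes, and the names PIP1 and PIP2, come from knowledge of the tomato genome and not from the files, and 0 of the 34688 identifiers matched the reference table. Members and lists were chosen with earlier results of these data known.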

Additional observations from a re-analysis of the deposited data

Results flagged for a closer look

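The effect of overexpression over knockout differed between factors at several PIP loci, by a test of the difference itself. Values are differences of log2 fold changes, SlWRKY71 minus the MYB factor, from edgeR at an adjusted p under 0.05, and the contrasts were added after the values had been seen. Against SlMYB41, the difference was 3.64 for Solyc10g084120, 2.95 for Solyc09g007770, 1.49 for Solyc08g081190, 1.43 for Solyc06g011350 and 1.23 for Solyc12g056220. Against SlMYB92, it was 2.52 for Solyc10g084120, 2.24 for Solyc09g007770, 1.94 for Solyc06g011350, 1.72 for Solyc12g056220, 1.71 for Solyc09g007760 and 1.25 for Solyc08g081190. Of all tested loci, 7.43% differed in either direction against SlMYB41 and 33.2% against SlMYB92, so such differences were common in the second contrast. All 11 kept their call without SlWRKY71 overexpression library 2, the library that stood apart, where 16.5% and 40.3% of all tested loci were called. No other library was left out for these contrasts. Solyc09g007760 and Solyc09g007770 share reads, and the part of the read split in their values was not tested.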

How the results depend on the processing

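The 30 single-locus calls over the 12 comparisons were all kept by DESeq2 and by upper-quartile scaling, 28 without the filter, and 27 each with only the groups compared and with the replicate block. Leaving out 1 library kept the call in 136 of 204 fits, changed no sign, and kept 13 of the 30 calls in every fit; the cause was not tested, beyond the fewer samples. Counts of called PIP loci moved as follows. SlMYB41 overexpression against control (0 called) had 2 without the filter, 2 with the replicate block, 2 with only the groups compared and 3 by DESeq2. SlMYB41 knockout (2) had 1 without the filter, with only the groups compared and with the chromosome 9 pair as 1 gene, and SlMYB92 knockout (1) had 0 with that pair as 1 gene. SlWRKY71 overexpression (0) had 1 without the filter and 1 by DESeq2, Solyc09g007760, lower. SlMYB92 overexpression against its knockout (1) had 2 without the filter, 3 with only the groups compared and 2 by DESeq2, and against SlMYB41 overexpression (0) it had 1 with only the groups compared. SlMYB92 overexpression against control (3) had 5 by DESeq2. Calls over all loci without the filter, beside those with it, were 200 and 179 for SlMYB41 overexpression, 949 and 935 for SlMYB41 knockout, and 241 and 164 for SlWRKY71 overexpression, all against control. They were 1465 and 1421 for SlMYB92 overexpression against its knockout. The counts by DESeq2 and the other settings are given without the calls over all loci, so they are not set beside a background.

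With the mean of the groups that target other genes in place of the control, SlWRKY71 overexpression had 1 call (higher, Solyc12g056220), SlMYB92 overexpression had 1 (higher, Solyc03g096290), SlMYB41 knockout had 2 at other loci (higher, Solyc09g007770 and Solyc10g084120), SlMYB92 knockout had 1 at another locus (higher, Solyc06g011350), SlWRKY71 knockout line 4 had 2 (Solyc12g056220 and Solyc08g081190, lower) and line 5 had 4 (these, Solyc03g096290 and Solyc06g011350, lower). Of the 19 calls against control, 6 were kept and 2 changed sign, Solyc12g056220 in SlMYB41 knockout (log2 fold change 0.076) and Solyc09g007760 in SlMYB92 knockout (log2 fold change 0.32). Solyc09g007760 lost its call in every group, with log2 values of -0.57 to 0.32. These counts are given without the share of all tested loci called against the same reference, so they are not set beside a background.

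Leaving out 1 library gave 7 to 9 loci for any difference (8 called), 0 to 1 for SlMYB41 overexpression, 1 to 2 for SlMYB41 knockout, 1 to 3 for SlMYB92 overexpression, 0 in every fit for SlMYB92 knockout, 0 to 2 for SlWRKY71 overexpression, 3 to 6 for SlWRKY71 knockout line 4 and 3 to 7 for line 5, all against control. Calls over all tested loci moved too. In the same order they were 3203 to 6701 (4705 with all libraries), 94 to 135 (179), 482 to 876 (935), 261 to 428 (601), 329 to 471 (525), 64 to 1607 (164), 222 to 1489 (1266) and 455 to 1071 (1425). Fits without 1 library gave 0 to 2 for SlMYB41 overexpression against knockout, 0 to 1 for SlMYB92, 5 to 7 for SlWRKY71, and 0 in every fit for both contrasts between the MYB factors. Over all tested loci the first 3 of these called 364 to 469 (585 with all libraries), 751 to 1238 (1421) and 2440 to 7334 (5652). The contrasts between the MYB factors called 34 to 71 (101) for overexpression and 25 to 57 (65) for knockout.

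Whether numbers in the column names pair the libraries could not be decided. The mean correlation of deviations was 0.011 over 67 same-numbered pairs, of which 28 exceeded 0.1. Over 185 different-numbered pairs the mean was -0.004, and 66 exceeded 0.1. Single values spread widely, from -0.47 to 0.57 for the same number and from -0.52 to 0.61 for different numbers. With the replicate block, Solyc10g084120 and Solyc11g069430 in SlWRKY71 knockout line 4 had edgeR adjusted p values of 0.054 and 0.065, Solyc01g094690 in SlWRKY71 overexpression against knockout had 0.064, and Solyc11g069430 in the test of any difference had 0.081. Solyc09g007770 in line 5 gained a call (log2 fold change -1.18, edgeR adjusted p = 0.035). Without the filter, Solyc11g069430 in line 4 had 0.057. With only the groups compared, Solyc08g081190 and Solyc11g069430 in line 5 had 0.066 and 0.075.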

Other observations

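Among tested loci outside the PIP set, those closest to Solyc08g081190 over the 24 libraries were Solyc12g098820 (Pearson r of log2(CPM + 1) = 0.90) and Solyc03g078400 (r = 0.87). Those closest to the summed PIP level were Solyc12g098820 (r = 0.91) and Solyc06g075650 (r = 0.91). These are descriptions of libraries that share groups.

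The nearest tested loci in identifier order, up to 10 on each side, were read against control in the SlWRKY71 knockout lines. For 7 of the 9 PIP loci the neighbours' median log2 fold change was between -0.25 and 0.31 in both lines. For Solyc12g056220 it was -0.09 in line 4 and -0.25 in line 5. The neighbours of the chromosome 9 pair were lower: those of Solyc09g007770 had medians of -0.65 in line 4 and -0.48 in line 5, with 15 of 19 below 0 in each line, and those of Solyc09g007760 had medians of -0.63 and -0.43, with 14 of 19 below 0. The neighbours of these 2 loci are overlapping sets. Of each 19, 1 was called lower in each line, beside 2.73% of all tested loci in line 4 and 3.26% in line 5. Lower medians were not limited to the SlWRKY71 lines: in SlMYB41 knockout against control they were -0.40 for Solyc09g007770 and -0.31 for Solyc09g007760. In the remaining groups against control they lay between -0.22 and 0.08.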
